A study of Homo sapiens with 12 samples.

Results

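The genes of the human translation initiation factors were followed in HEK293T cells that received dCas9-VP160 with guide RNAs, dCas9-VP160 alone or no plasmid. The set was defined by name: every protein-coding gene of the count table whose symbol is EIF followed by a digit, without the kinases EIF2AK1 to EIF2AK4 and without EIF2D. This gave 51 of the 60604 gene identifiers in the table. They comprise 4 genes of eIF2, 5 of eIF2B, 14 of eIF3, 16 of eIF4 with its regulators, and 12 other factors. A filter on low counts kept 47 of them for testing. The 4 others, EIF3CL, EIF4E1B, EIF4EBP3 and EIF1AY, had too few counts in every group.

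Initiation factors bring the small ribosomal subunit, the initiator transfer RNA and the messenger RNA together. eIF2 binds GTP and carries the initiator transfer RNA, and eIF2B, its exchange factor, reloads eIF2 with GTP after each round. eIF3 is the large scaffold on the small subunit. The eIF4 factors bind the cap of the messenger RNA, link it to the ribosome and unwind it, and the 4E-binding proteins hold the cap-binding protein eIF4E in check. eIF1, eIF1A and eIF5 govern the choice of the start codon, and eIF5B joins the large subunit. Stress kinases lower the rate of initiation by phosphorylating eIF2, and the kinase mTOR raises it by releasing eIF4E.

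HEK293T, a line from human embryonic kidney, expresses the SV40 large T antigen. In dCas9-VP160 a Cas9 that no longer cuts DNA is fused to VP160, repeats of a viral activation domain. Cells were transfected for 48 h with 5.4 pmol of plasmid in 100 mm dishes, and 6 guide RNAs directed the protein to the promoter of CD34. Each of the 3 groups has 4 libraries: dCas9-VP160 with CD34 guides, dCas9-VP160 alone, and cells with no plasmid, for which the labels say non-transfected in one place and transfection reagents only in another. Within a group, 2 experiments used different batches of cells, and every experiment gave 2 technical replicates. A plasmid lacking dCas9-VP160 was not among the groups, so an effect of the plasmid and an effect of the protein cannot be told apart.

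The libraries held 6750035 to 11932244 counts in genes, and 26115 to 28418 genes had at least 1 count. CD34 was at 107, 97.5, 97.9 and 94.5 CPM in the libraries with guides, at 0.774, 1.02, 0.983 and 0.832 CPM with dCas9-VP160 alone, and at 1.52, 2.47, 1.61 and 2.42 CPM without plasmid, where CPM are counts scaled by library size, with TMM factors. Of 7 lineage markers of HEK293 cells, NEFL, the neurofilament light chain, was at 349 CPM without plasmid and PAX2 at 0.990 CPM. The means of 8 markers of other cell types lay at 0 to 0.306 CPM in every group, with HBG1 at 0 in all libraries. Mitochondrially encoded genes took 5.57 to 7.50% of counts with guides, 5.14 to 5.63% with dCas9-VP160 alone and 8.31 to 8.78% without plasmid. The transcripts of spike-in sequences made up 0.719 and 0.404% of counts in the no-plasmid libraries of experiment 1 and at most 0.00818% elsewhere. Their part in the results below was not tested, apart from a fit without mitochondrial genes.

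RefSeq sequences around the annotated start of transcription (GRCh38.p14) were read for the members, because many genes of the translation machinery begin their messenger RNA with a 5′ terminal oligopyrimidine tract, which couples their translation to mTOR. A window was found for 43 of the 51 genes. None was available for EIF2S2, EIF3A, EIF3CL, EIF3E, EIF3G, EIF3H, EIF3L and EIF4EBP1, so no motif was searched in these. The search asked for a C at the annotated start followed by at least 4 further C or T bases, a rule chosen after the sequences had been seen. Such a start was present in 9 of the 43 genes (20.9%), against 6.99% of 12070 tested genes with a window and 5.14% of all 27305 genes with one. Each line gives 15 bases before the start and 15 from it, 5′ to 3′, with the pyrimidine run in capitals. The first 3 genes were lower with dCas9-VP160 alone than without plasmid, the next 3 were higher, and the last was not called.
EIF3F, chr11:7987322-7987351, plus strand: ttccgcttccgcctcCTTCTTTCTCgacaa
EIF4B, chr12:53006441-53006470, plus strand: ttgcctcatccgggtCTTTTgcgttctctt
EIF4A2, chr3:186783562-186783591, plus strand: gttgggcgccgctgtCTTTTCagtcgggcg
EIF3D, chr22:36529152-36529181, minus strand: gcgcgcgcatgtttcCTCTTTTCCTggttt
EIF3K, chr19:38619173-38619202, plus strand: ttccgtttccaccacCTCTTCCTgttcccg
EIF3M, chr11:32583816-32583845, plus strand: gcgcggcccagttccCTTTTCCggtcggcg
EIF2S3, chrX:24054941-24054970, plus strand: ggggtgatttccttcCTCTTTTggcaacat

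EIF2S3B and EIF2A, neither of them called, had such a start as well. Among genes with a window, it was found in 3 of 22 members that were higher with dCas9-VP160 alone, 3 of 7 that were lower and 3 of 11 that were not called, and the other windows belong to genes that were not tested. Some of the members with the largest increases lacked it. Their windows follow, with the annotated first base in capitals.
EIF2S1, chr14:67360313-67360342, plus strand: gcgaggaggttccgcAtgcgcggtggagtg
EIF2B2, chr14:75002906-75002935, plus strand: gacctcgcccgccccGgaagtgcaaactgt
EIF1, chr17:41688870-41688899, plus strand: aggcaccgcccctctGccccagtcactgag

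The E-box CACGTG, the recognition sequence of MYC and of related factors, occurred in the 300-base window of 11 of the 43 genes (25.6%), against 12.2% of the tested genes and 8.77% of all genes with a window. It is its own reverse complement, so both strands were covered. It was present in 6 of 22 members that were higher with dCas9-VP160 alone, in 2 of 7 that were lower and in 2 of 11 that were not called. Genes with several annotated starts had several windows. The 30 bases around the motif are given for 2 members that were higher, EIF1B and EIF4A3, and for 1 that was lower, EIF4B, with the motif in capitals.
EIF1B, chr3:40309641-40309670, plus strand: gcgcgggacggtCACGTGggaggggccgcg
EIF4A3, chr17:80147232-80147261, minus strand: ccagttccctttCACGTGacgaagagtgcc
EIF4B, chr12:53006422-53006451, plus strand: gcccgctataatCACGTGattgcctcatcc

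Relative to the annotated start, the motif began at -54 in EIF1B, at -121 in EIF4A3 and at -22 in EIF4B. The motif TGATGNAA, the binding element of ATF4 with its partners, was searched on both strands. It was found in 1 of the 43 genes (2.33%), a gene that was not called with dCas9-VP160 alone, and in 2.92% of the tested genes. A match or its absence describes these letters only.

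Levels are compared between genes as CPM per kilobase of merged exon, from the GENCODE v29 annotation of GRCh38. Merged exons can exceed the length of the transcripts present, so the scale is approximate. Without plasmid, EIF2S3, the subunit of eIF2 that binds GTP, had the highest level at 180 ± 0.975 CPM per kb (SD, n = 2 experiments). EIF4G2, a relative of the scaffold eIF4G that lacks the part binding eIF4E, followed at 161 ± 3.06, and EIF3I, a subunit of eIF3, at 145 ± 7.18 CPM per kb. EIF1 stood at 106 ± 9.48 CPM per kb, above EIF4H and EIF4EBP1 at 74.3 ± 1.85 and 70.5 ± 2.93. The next genes, EIF5A, EIF4A3, EIF6 and EIF3D, lay at 51.3, 51.0, 49.9 and 49.4 CPM per kb, with SDs of 0.791 to 3.50, and did not differ from each other beyond their spread.

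The subunits of eIF3 were spread widely on this scale. EIF3I and EIF3D are given above, and EIF3B, EIF3A, EIF3M, EIF3K and EIF3E had 40.0 to 44.7 CPM per kb without plasmid, with overlapping spreads. EIF3G, EIF3L, EIF3F and EIF3H had 32.9, 29.9, 25.0 and 22.1 CPM per kb, EIF3J had 8.58 ± 0.0835 and EIF3C 1.64 ± 0.317. EIF3C and EIF3CL are near-identical copies on chromosome 16, and reads that fit both can be lost or split, so the level of EIF3C is uncertain. It had 1499 counts over the 12 libraries and EIF3CL 11. EIF4A1, the helicase of the cap complex, stood at only 0.855 ± 0.0456 CPM per kb and 509 counts, against 35.8 ± 1.08 for its paralogue EIF4A2. EIF4A1 shares exon sequence on its strand with the read-through gene SENP3-EIF4A1 and with AC016876.2, so its count cannot be taken as its expression. EIF4E, the cap-binding protein, was at 5.21 ± 0.00844 CPM per kb over a merged exon length of 14067 bases. At the bottom, EIF5AL1 and EIF2S3B, low-count relatives of EIF5A and EIF2S3, were at 0.250 ± 0.164 and 0.167 ± 0.116, and reads of their parent genes can reach them.

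**Figure D1:**
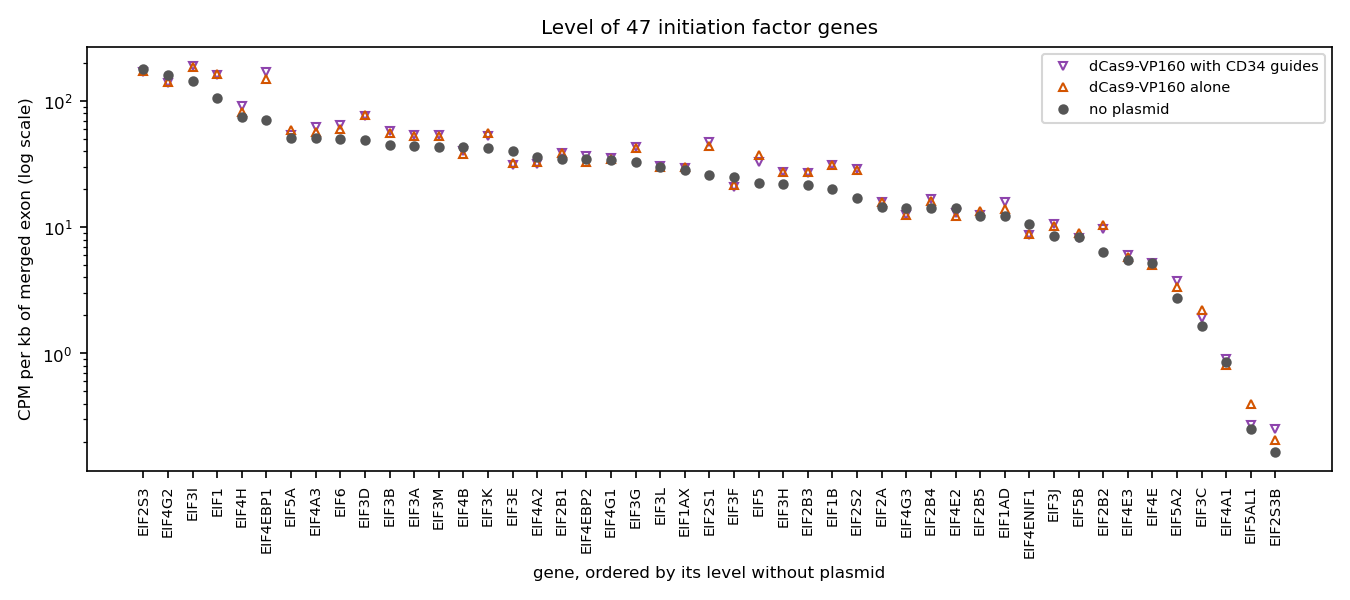
Mean level of the 47 tested initiation factor genes in CPM per kilobase of merged exon (log axis), ordered by the level without plasmid, with 1 symbol per group. EIF2S3 is at the top with 180 CPM per kb without plasmid and EIF2S3B at the bottom with 0.167, and EIF4EBP1 is at 169 CPM per kb with guides, 151 with dCas9-VP160 alone and 70.5 without plasmid.

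Cells with dCas9-VP160 alone were first set against cells with no plasmid, which asks how transfection of the activator without a guide went with the level of each factor. Subunits of eIF2, eIF2B and eIF3, the start-codon factors EIF1, EIF1B and EIF5, and the translation repressor EIF4EBP1 were higher with dCas9-VP160 alone. EIF3E, EIF3F and 6 of 14 tested genes of eIF4 and its regulators were lower, but EIF4E, EIF4G1 and EIF4A1 were not called. Of the 47 tested members, 27 were called higher and 8 lower and 12 were not called, at an adjusted p below 0.05 in edgeR's quasi-likelihood test with the experiment as a block. This comparison called 51.2% of all 19662 genes, 26.6% higher and 24.6% lower. The 35 members called are 74.5% of those tested, against 65.5% of protein-coding genes with a mean of at least 10 CPM. The median log2 fold change of the members was 0.20, against -0.002 over all genes tested. All 35 had the same sign in both experiments. When the experiment was not taken as a block, 15 members were higher and 0 lower.

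Summed over the members, the level was 9262 ± 275 CPM with dCas9-VP160 alone and 8285 ± 217 CPM without plasmid (SD, n = 2 experiments each). In every library with dCas9-VP160 alone the sum was at least 9026 CPM, and in every library without plasmid at most 8450 CPM. The sum of eIF2 was 928.7 ± 47.3 CPM with dCas9-VP160 alone and 817.6 ± 16.2 CPM without plasmid. That of eIF2B was 473.9 ± 4.53 CPM with dCas9-VP160 alone and 397.8 ± 18.4 CPM without plasmid. That of eIF3 was 2974 ± 95.0 CPM with dCas9-VP160 alone and 2506 ± 104 CPM without plasmid. None of these 3 sums overlapped between the groups. For the other factors the sum was 1570 ± 107 CPM with dCas9-VP160 alone and 1149 ± 94.0 CPM without plasmid. The eIF4 genes summed to 3316 ± 20.8 CPM with dCas9-VP160 alone and 3414 ± 15.2 CPM without plasmid, with overlapping libraries, and EIF4G2 made up much of that sum, at 1239 and 1390 CPM in those groups. An alternative chosen after seeing the data left out EIF4G2. The eIF4 sum was then 2076 ± 75.9 CPM with dCas9-VP160 alone and 2024 ± 41.6 CPM without plasmid. Its libraries overlapped, at 2004 to 2145 and 1970 to 2092 CPM, and it held the repressor EIF4EBP1 at 162 and 75.6 CPM. The direction of the eIF4 sum thus depended on which genes were counted. In bulk RNA, fewer cells of a kind and less RNA per cell cannot be told apart, and CPM are shares of a library rather than amounts per cell.

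**Figure D2:**
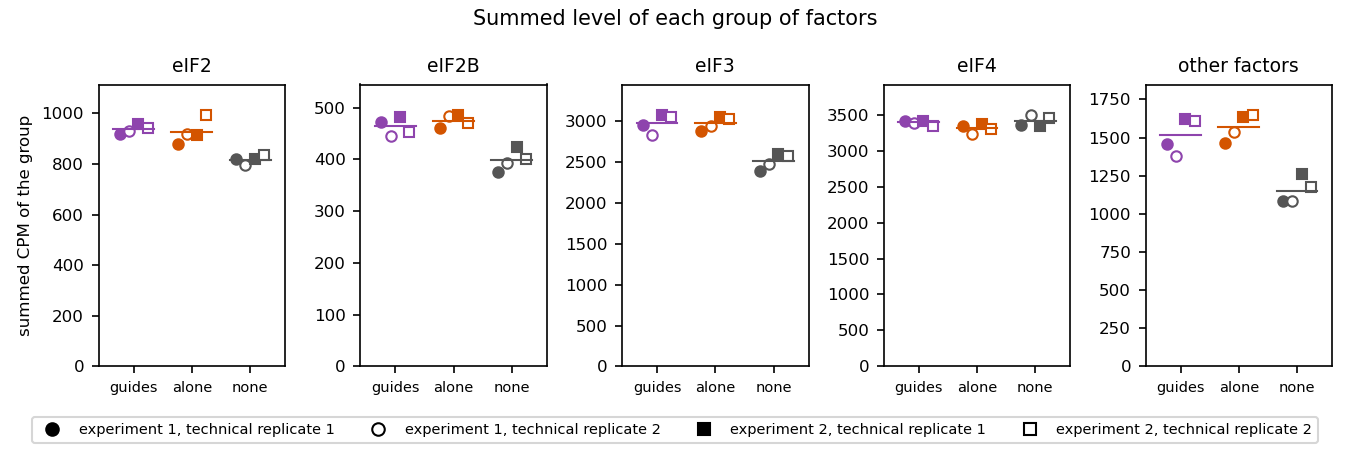
Summed CPM of each group of factors (vertical axes from 0) in the 12 libraries, with guides, with dCas9-VP160 alone and without plasmid from left to right; lines are means of the 2 experiments. The eIF2, eIF2B, eIF3 and other-factor sums without plasmid lie below every transfected library, and the eIF4 sums, 3316 CPM with dCas9-VP160 alone and 3414 CPM without plasmid, overlap.

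Among the eIF2 genes, 2 of 4 were called, both higher. EIF2S1 (chr14:67359997-67386516) encodes the alpha subunit, the one that stress kinases phosphorylate. In the order experiment 1 replicates 1 and 2, then experiment 2 replicates 1 and 2, which holds throughout, EIF2S1 had 245, 245, 248 and 250 CPM with dCas9-VP160 alone, against 138, 144, 142 and 156 CPM without plasmid. The groups were far apart, and the log2 fold change was 0.77 with an SE of 0.04 (adjusted p = 8.24e-15, edgeR) and a fold of 1.70. EIF2S2 (chr20:34088298-34112332), the beta subunit, had 65.2, 67.3, 77.5 and 90.9 CPM with dCas9-VP160 alone, against 40.2, 40.7, 51.4 and 49.4 CPM without plasmid. It was higher in experiment 2 than in experiment 1 in both groups, and its log2 fold change was 0.74 ± 0.06 (adjusted p = 3.55e-11, edgeR).

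The gamma subunit did not move with the others. EIF2S3 had 567, 605, 591 and 654 CPM with dCas9-VP160 alone, against 643, 613, 627 and 631 CPM without plasmid, and these ranges overlap. The log2 fold change was -0.05, with a 95% interval of -0.12 to 0.02 (adjusted p = 0.230, edgeR). With the first technical replicates alone EIF2S3 was called lower, at -0.13 (adjusted p = 0.0301, edgeR). The second alone gave 0.02 for EIF2S3 (adjusted p = 0.818, edgeR). EIF2S3B, its low-count relative, had a log2 fold change of 0.27 with an interval of -0.81 to 1.35.

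All 5 subunits of eIF2B were called higher, with a median log2 fold change of 0.21. EIF2B2 (chr14:75002911-75012366), the beta subunit of the regulatory core, had 55.8, 57.3, 59.6 and 54.9 CPM with dCas9-VP160 alone, against 30.5, 33.5, 39.3 and 36.7 CPM without plasmid. It was the member of eIF2B that differed most, by a log2 fold change of 0.70 ± 0.07 (adjusted p = 1.11e-09, edgeR). An antisense gene, AL049780.1, and AL049780.3 overlap 3.4 and 20.2% of its exon bases on the other strand, and they held 1180 and 41 counts against 5361 for EIF2B2. The kits named in the labels are not known to mark strand, and no label states how strand was handled in counting, so reads from that overlap may not be assigned to the right gene. EIF2B3, a partner of the catalytic subunit, rose by 0.34, EIF2B4 by 0.21 and EIF2B1 by 0.16 on the log2 scale. EIF2B5, the catalytic subunit, was barely past the threshold at 0.12 (adjusted p = 0.0448, edgeR), and 13 of 16 alternative settings did not call it.

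The eIF3 subunits moved in both directions: 10 of 13 tested were higher, 2 lower and 1 was not called, with a median log2 fold change of 0.31. EIF3D (chr22:36510850-36529436), a subunit that can itself bind the cap of some messenger RNAs, had 300, 312, 338 and 324 CPM with dCas9-VP160 alone, against 192, 196, 201 and 215 CPM without plasmid. No library of one group reached those of the other, and the log2 fold change was 0.66 ± 0.04 (adjusted p = 4.46e-14, edgeR). EIF3C (chr16:28688558-28735730), a core scaffold subunit with uncertain counts, had 14.5, 14.3, 15.2 and 17.2 CPM with dCas9-VP160 alone, against 10.1, 9.81, 13.5 and 12.7 CPM without plasmid. Its log2 fold change of 0.43 ± 0.11 (adjusted p = 0.00117, edgeR) was not called in 3 of 16 alternative settings, among them the fit without the second technical replicates, where the first ones alone gave 0.345 (adjusted p = 0.0552).

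EIF3K, EIF3I and EIF3G followed in size. EIF3K (chr19:38619082-38636955), a small peripheral subunit, had 148, 161, 154 and 161 CPM with dCas9-VP160 alone, against 112, 116, 126 and 122 CPM without plasmid (log2 fold change 0.39 ± 0.04, adjusted p = 3.72e-08, edgeR). EIF3I (chr1:32221928-32231604), a WD-repeat subunit, had 315, 324, 325 and 333 CPM with dCas9-VP160 alone, against 246, 239, 263 and 255 CPM without plasmid (0.38 ± 0.04, adjusted p = 2.37e-09, edgeR). EIF3G (chr19:10115017-10119918), which binds RNA beside EIF3I and EIF3B, had 143, 139, 156 and 154 CPM with dCas9-VP160 alone, against 115, 111, 118 and 115 CPM without plasmid (0.37 ± 0.04, adjusted p = 7.02e-08, edgeR). In all 3 genes every library with dCas9-VP160 alone was above every library without plasmid. EIF3B, EIF3H, EIF3M, EIF3A and EIF3J were also called, with log2 fold changes of 0.33, 0.31, 0.28, 0.27 and 0.25. The call of EIF3J was kept in 11 of 16 alternative settings, where it ranged from 0.13 to 0.38. It was lost with DESeq2 and without the block.

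EIF3E and EIF3F were the called eIF3 genes that fell. EIF3E (chr8:108201216-108435333), a subunit found truncated by viral insertion in mouse mammary tumours, had 185, 183, 198 and 213 CPM with dCas9-VP160 alone, against 216, 221, 271 and 256 CPM without plasmid. Every library with dCas9-VP160 alone was below every library without plasmid, and the log2 fold change was -0.30 ± 0.04 (adjusted p = 5.46e-07, edgeR). The 2 pseudogenes named after EIF3E held 590 counts, against 23284 for the gene itself. EIF3F, which like EIF3H carries an MPN domain, had 203, 208, 209 and 205 CPM with dCas9-VP160 alone, against 229, 246, 252 and 219 CPM without plasmid, which is -0.19 ± 0.04 on the log2 scale (adjusted p = 0.000171, edgeR). EIF3L had a log2 fold change of 0.003 with an interval of -0.09 to 0.09 and was not called.

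**Figure D3:**
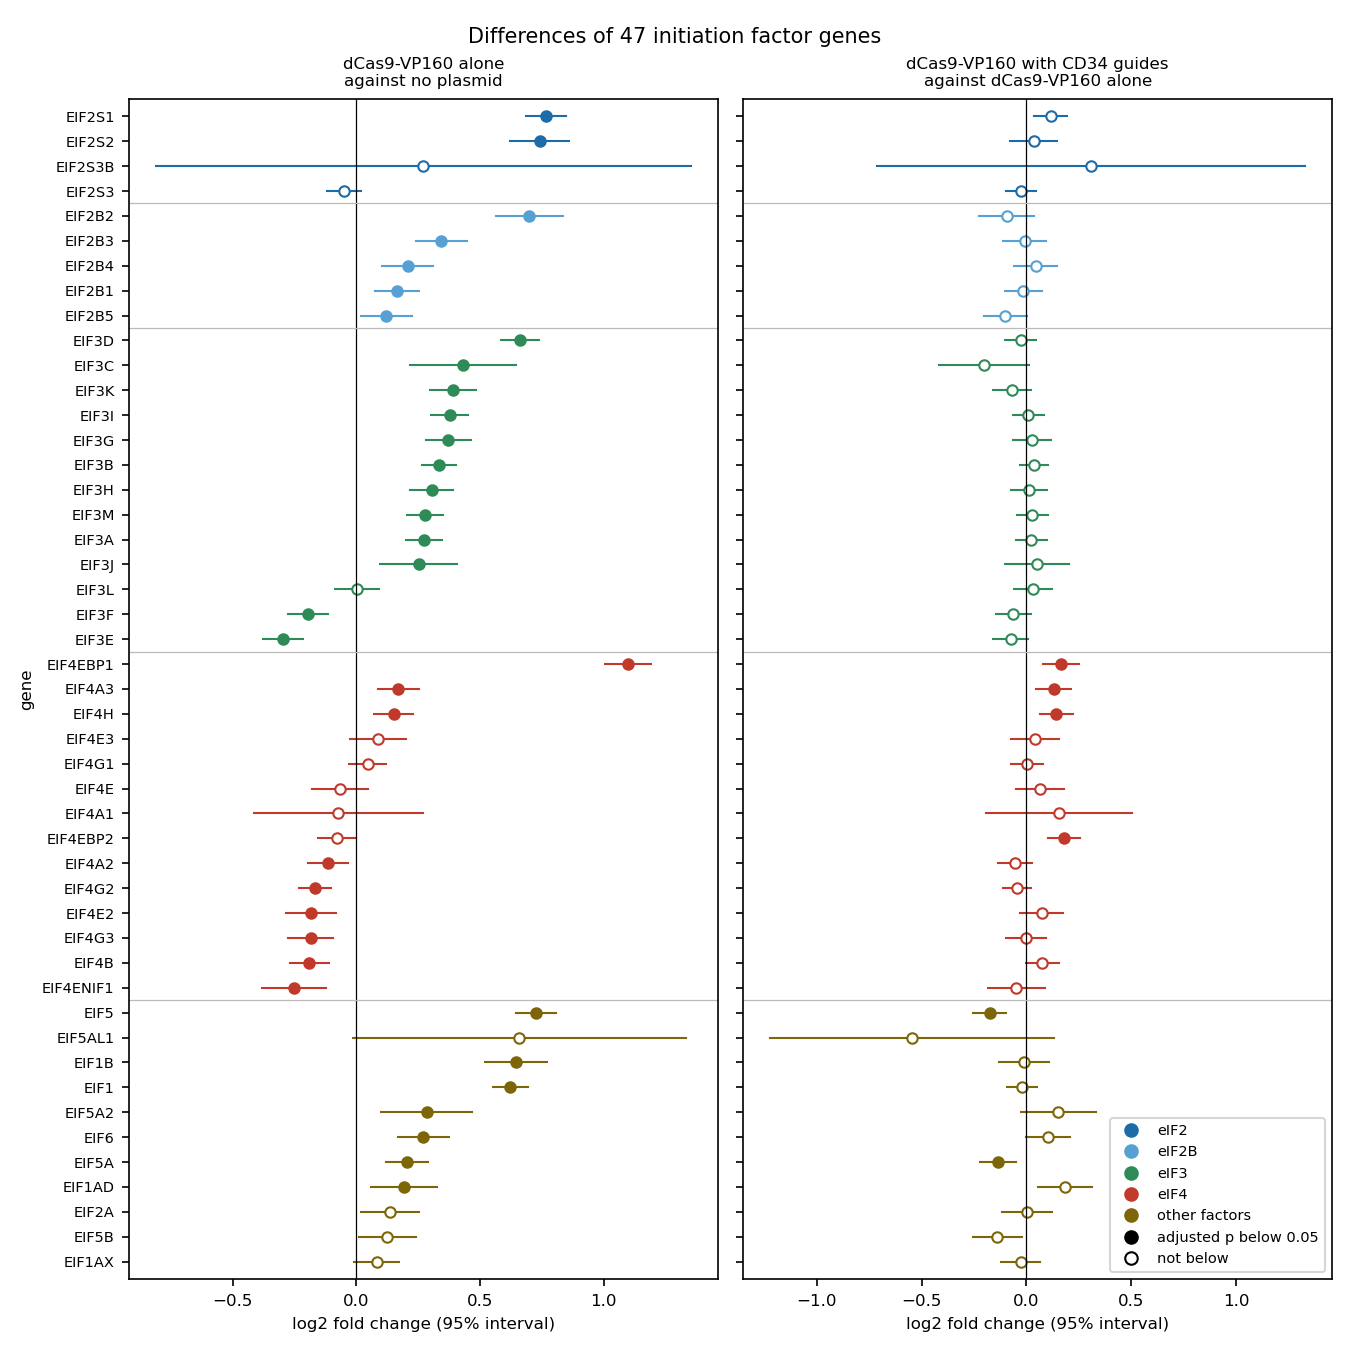
Log2 fold change and 95% interval of the 47 tested genes, grouped by factor and ordered by the left panel, for dCas9-VP160 alone against no plasmid (left) and dCas9-VP160 with guides against dCas9-VP160 alone (right); filled symbols have an adjusted p below 0.05. On the left 27 genes are called higher and 8 lower, with EIF4EBP1 at 1.10; on the right 4 are called higher and 2 lower.

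Among the eIF4 genes 3 of 14 tested were called higher, EIF4EBP1, EIF4A3 and EIF4H, and 6 were called lower. EIF4EBP1 (chr8:38030341-38060365), which binds eIF4E and blocks cap-dependent initiation until mTOR phosphorylates it, had 163, 184, 146 and 157 CPM with dCas9-VP160 alone, against 81.3, 75.7, 80.6 and 67.7 CPM without plasmid. It had the largest difference of all 47 members, a log2 fold change of 1.10 ± 0.05 and a fold of 2.14 (95% interval on the log2 scale 1.01 to 1.19, adjusted p = 6.53e-17, edgeR). Experiment 1 gave 1.14 and experiment 2 gave 1.06. Its paralogue EIF4EBP2 had 254, 233, 229 and 227 CPM with dCas9-VP160 alone, against 257, 269, 221 and 252 CPM without plasmid, and was not called (-0.08, interval -0.15 to -0.001). EIF4A3, a helicase of the exon junction complex, rose by 0.17, and EIF4H, which stimulates eIF4A, rose by 0.15 on the log2 scale.

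The 6 eIF4 genes that fell did so by small amounts, and the median over the 14 was -0.08. EIF4G2 was at 1197, 1127, 1326 and 1291 CPM with dCas9-VP160 alone, against 1336, 1406, 1374 and 1439 CPM without plasmid. The highest library with dCas9-VP160 alone lay just under the lowest without plasmid, and the log2 fold change was -0.17 ± 0.03 (adjusted p = 9.72e-05, edgeR). EIF4ENIF1, which carries eIF4E into the nucleus, fell by 0.25, EIF4B, a cofactor of eIF4A, by 0.19, EIF4G3, a cap-complex scaffold, by 0.18, EIF4E2, a cap-binding repressor, by 0.18, and EIF4A2, a helicase, by 0.12 on the log2 scale. AC068888.1 and AC073254.1 overlap EIF4B and EIF4E2 on the other strand over 11.9 and 16.6% of exon bases. EIF4E, EIF4E3, EIF4G1 and EIF4A1 were not called, with log2 fold changes of -0.07, 0.09, 0.05 and -0.07.

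The direction of the eIF4 median rested on which technical replicates were used. With the first technical replicates alone the median of the eIF4 genes was 0.045, and with the second alone it was -0.195, while the median of eIF3 was 0.31 and 0.32. EIF4E had 79.3 and 68.7 CPM in the first replicates of the cells with dCas9-VP160 alone and 66.1 and 64.1 CPM in the second, against 70.2 and 71.9, then 75.9 and 74.6, without plasmid. EIF4G2, EIF4B, EIF4ENIF1 and EIF4A2 were called lower with the second technical replicates and not with the first, where their log2 fold changes were -0.10, -0.12, -0.17 and -0.03. EIF4E and EIF4EBP2, not called with all libraries, were called lower with the second alone, at -0.21 and -0.18. EIF4G3 and EIF4E2 were called lower with either, as were EIF3E and EIF3F.

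**Figure D4:**
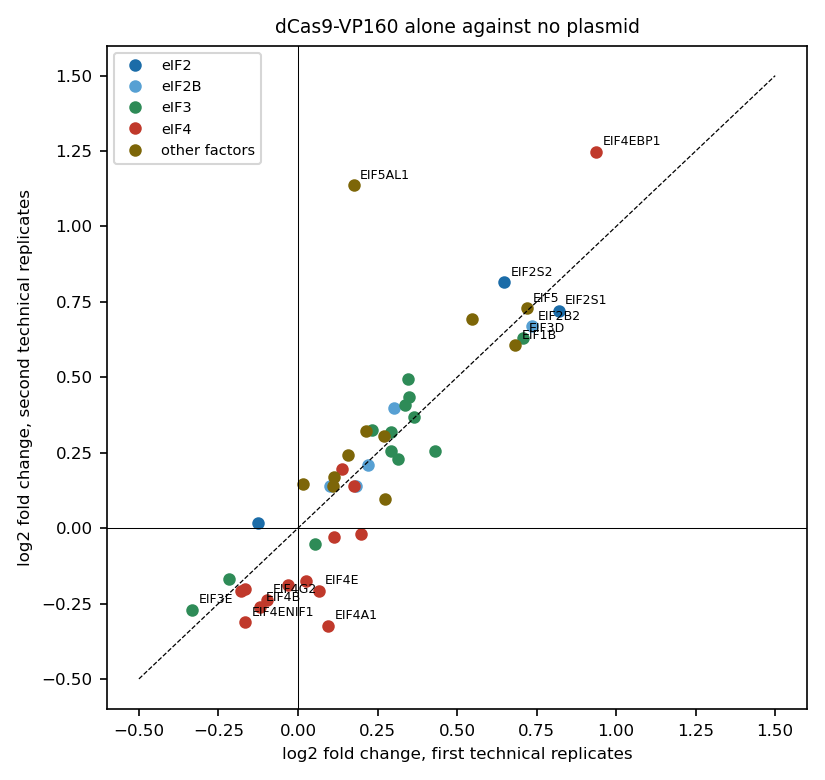
Log2 fold change of 46 initiation factor genes, dCas9-VP160 alone against no plasmid, from the first technical replicates of both experiments (horizontal) and from the second (vertical); the dashed line marks equal values. EIF4EBP1 is at 0.94 and 1.25 and EIF2S1 at 0.82 and 0.72, and most eIF4 genes lie under the line.

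Of the 11 other factors tested, 7 were called higher and 0 lower, with a median of 0.27, and the lowest log2 fold change among them was 0.08. EIF5 (chr14:103333544-103345025), which makes eIF2 hydrolyse its GTP once the start codon is found, had 279, 284, 363 and 346 CPM with dCas9-VP160 alone, against 176, 173, 216 and 206 CPM without plasmid. Experiment 2 was higher in both groups, the groups did not overlap, and the log2 fold change was 0.73 ± 0.04 (adjusted p = 1.77e-14, edgeR). EIF1 (chr17:41688885-41692668), which guards against wrong start codons, had 550, 598, 599 and 617 CPM with dCas9-VP160 alone, against 361, 360, 431 and 391 CPM without plasmid (0.62 ± 0.04, adjusted p = 5.42e-14, edgeR). Its close paralogue EIF1B (chr3:40309684-40312424) had 57.1, 55.6, 64.1 and 62.1 CPM with dCas9-VP160 alone, against 34.9, 37.4, 41.0 and 39.6 CPM without plasmid (0.65 ± 0.06, adjusted p = 1.28e-09, edgeR). The differences were close in the 2 experiments, with log2 fold changes of 0.70 and 0.75 for EIF5, 0.67 and 0.58 for EIF1 and 0.64 and 0.65 for EIF1B in experiments 1 and 2.

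EIF5A2, EIF6, EIF5A and EIF1AD were also higher, by 0.28, 0.27, 0.20 and 0.19 on the log2 scale. The calls of EIF5A2 and EIF1AD were kept in 10 of 16 alternative settings each, and were lost with DESeq2 and without the block. EIF1AD ranged from 0.10 to 0.27 over these settings. EIF5A carries the amino acid hypusine and helps ribosomes past difficult stretches, and EIF6 keeps large subunits from joining too soon. EIF1AX, the eIF1A gene of the X chromosome, was at 0.08 (interval -0.01 to 0.17), EIF2A at 0.14, EIF5B at 0.13 and EIF5AL1 at 0.66 (interval -0.02 to 1.33), and none of these 4 was called. Counted by libraries rather than by a test, 22 of the 47 members had all 4 libraries with dCas9-VP160 alone above all 4 without plasmid, against 19.4% of all tested genes, and 5 had all 4 below, against 17.7%. These shares include genes of low count, and they were not computed for abundant protein-coding genes alone.

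**Figure D5:**
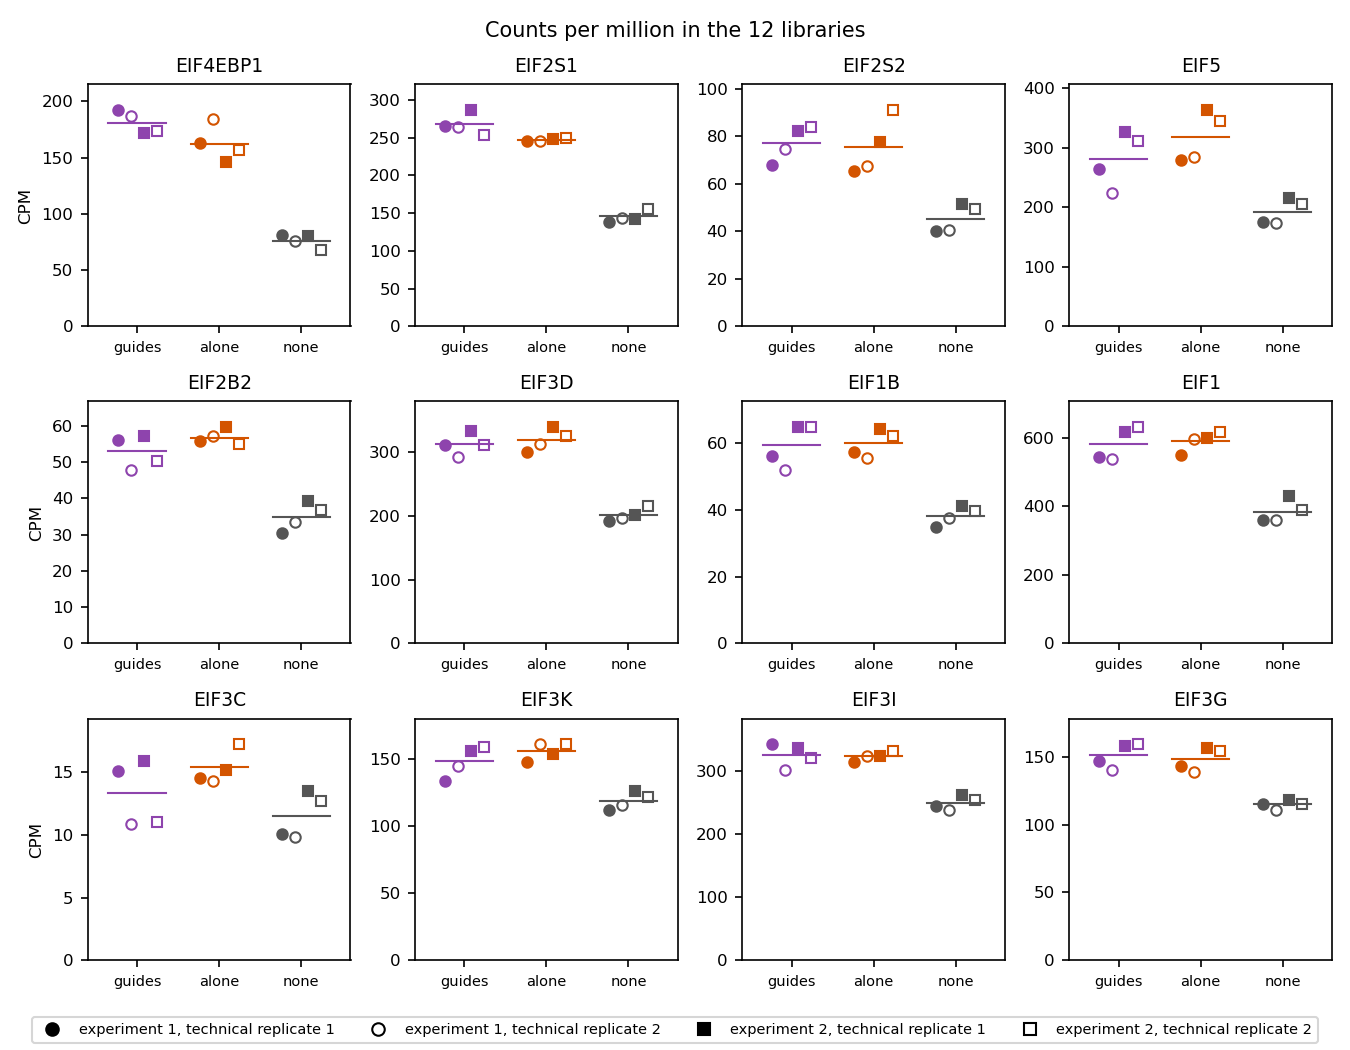
CPM (axes from 0) of the 12 called members that differed most between dCas9-VP160 alone and no plasmid, in every library; from left to right the groups are dCas9-VP160 with guides, dCas9-VP160 alone and no plasmid, and lines are means of the 2 experiments. In these genes all 4 libraries with dCas9-VP160 alone lie above all 4 without plasmid, as for EIF4EBP1, which is at 146 to 184 CPM against 67.7 to 81.3 CPM.

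Other genes of translation were counted from lists. With dCas9-VP160 alone, 8 of 14 tested elongation and termination factors were called higher and 2 lower, as were 10 and 1 of 19 cofactors of initiation. These are 71.4 and 57.9% of the lists, near the 65.5% of protein-coding genes with a mean of at least 10 CPM. Among the elongation and termination factors, ABCE1, which splits ribosomes after termination, rose by 0.58, EEFSEC, the selenocysteine elongation factor, by 0.51 and EEF1A2 by 0.49 on the log2 scale. EEF2K, the kinase that inhibits eEF2, and EEF1A1 fell, with log2 fold changes of -0.41 and -0.34. EEF1G had 0 counts in every library and was not tested. Among the cofactors, MCTS1, which recycles small subunits, rose by 0.48, PAIP2, an inhibitor of the poly(A)-binding protein, by 0.46 and the helicase DHX29 by 0.43, and PDCD4, an inhibitor of eIF4A, fell by 0.36 on the log2 scale.

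Guides against CD34 were then compared with dCas9-VP160 alone, which asks what the guides added. Few initiation factors differed: 4 of 47 were called higher, 2 lower and 41 were not called. The comparison called 7.56% of all genes, 4.16% higher and 3.41% lower, and 11.6% of protein-coding genes with a mean of at least 10 CPM, against 12.8% of the members. The median of the members was 0.01, and no member reached a fold of 1.5 in either direction. Only EIF4EBP2 was also called by DESeq2, and without the experiment as a block 0 of the 6 were called. The first technical replicates alone kept 3 of the 6 calls, EIF4A3, EIF4EBP1 and EIF4H, and the second alone kept EIF4EBP2, EIF5 and EIF5A.

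EIF4EBP2 had 280, 273, 260 and 259 CPM with guides, against 254, 233, 229 and 227 CPM with dCas9-VP160 alone. All 4 libraries with guides were above, a separation whose share over all tested genes was not computed here. The log2 fold change of EIF4EBP2 was 0.18 ± 0.04 (adjusted p = 0.00330, edgeR), and it was not called in 5 of 16 alternative settings. EIF5 had 265, 224, 326 and 311 CPM with guides, against 279, 284, 363 and 346 CPM with dCas9-VP160 alone. It fell by 0.18 ± 0.04 on the log2 scale (adjusted p = 0.00434, edgeR), lower within each experiment although the ranges over both overlap. EIF4EBP1, EIF4H and EIF4A3 were called higher, at 0.16, 0.14 and 0.13.

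EIF5A was called lower, at -0.14 (adjusted p = 0.0456, edgeR), and its libraries split by technical replicate. It had 181 and 150 CPM in the first replicates with guides and 141 and 133 CPM in the second, against 173 and 156, then 178 and 159, with dCas9-VP160 alone. With the first replicates alone its log2 fold change was 0.01 (adjusted p = 0.979). In the second replicates with guides mitochondrial genes took 7.50 and 7.44% of counts, against 5.57 and 5.59% in the first. In a fit without mitochondrially encoded genes EIF5A was at -0.13 and no longer called (adjusted p = 0.0620, edgeR), while the other 5 calls were kept. The same single call was lost with DESeq2's size factors, with no filter on low counts and with 12 unsummed libraries. Over the 16 alternative settings the call of EIF5A was kept in 3.

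The 6 members with the largest differences in size were mostly not called. EIF5AL1 had 2.04, 1.40, 0.331 and 0.427 CPM with guides, against 1.74, 3.07, 0.655 and 0.832 CPM with dCas9-VP160 alone, a log2 fold change of -0.55 with an interval of -1.22 to 0.13. EIF2S3B had 0.566, 0.861, 0.552 and 0.427 CPM with guides, against 0.677, 0.877, 0.218 and 0.250 CPM with dCas9-VP160 alone (0.31, interval -0.71 to 1.33). Both are at the level of a few counts, and neither was called. EIF3C had 15.1, 10.9, 15.9 and 11.0 CPM with guides, against 14.5, 14.3, 15.2 and 17.2 CPM with dCas9-VP160 alone (-0.20, interval -0.42 to 0.01), and here too the second technical replicates with guides were low. EIF1AD had 56.6, 49.4, 55.6 and 48.0 CPM with guides, against 50.7, 41.5, 43.3 and 47.0 CPM with dCas9-VP160 alone (0.18, interval 0.05 to 0.31, adjusted p = 0.0787, edgeR), and its ranges overlap. EIF4EBP2 and EIF5 complete the 6.

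No eIF2, eIF2B or eIF3 gene was called in this comparison. Their log2 fold changes ran from -0.10 to 0.04 in eIF2B and from -0.20 to 0.05 in eIF3. EIF2S1 had 265, 264, 286 and 253 CPM with guides, above the 245 to 250 CPM with dCas9-VP160 alone, but at 0.12 with an adjusted p of 0.0608 (edgeR) it was not called. The elongation list had 0 genes higher and EEF2 lower, and the cofactor list had DENR higher and DHX29 lower.

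Cells with guides were last set against cells with no plasmid. Both this comparison and the first use the same cells without plasmid, so their values are given side by side and are not independent. Of the 47 members, 25 were higher, 7 lower and 15 were not called, against 52.6% of all genes called, 26.7% higher and 25.9% lower. The members called were 68.1% of those tested, against 67.6% of protein-coding genes with a mean of at least 10 CPM. Without the experiment as a block, 20 members were higher and 3 lower.

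EIF4EBP1 had 192, 187, 172 and 174 CPM with guides, against 67.7 to 81.3 CPM without plasmid, a log2 fold change of 1.26 ± 0.05 (adjusted p = 2.62e-18, edgeR). The eIF2 subunits EIF2S1 and EIF2S2 had 253 to 286 and 67.8 to 83.8 CPM with guides, against 138 to 156 and 40.2 to 51.4 CPM without plasmid, with log2 fold changes of 0.88 ± 0.04 and 0.77 ± 0.06 (adjusted p = 3.37e-16 and 1.42e-11, edgeR). EIF2B2 had 56.2, 47.8, 57.3 and 50.2 CPM with guides and a log2 fold change of 0.60 ± 0.07. EIF2B5, called higher with dCas9-VP160 alone, was at 0.02 with guides and not called.

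EIF3D had 310, 292, 333 and 310 CPM with guides (0.64 ± 0.04), EIF3G 147, 140, 158 and 159 CPM (0.40 ± 0.04), EIF3I 343, 303, 337 and 321 CPM (0.39 ± 0.04) and EIF3K 134, 145, 156 and 159 CPM (0.32 ± 0.05). In these 4 subunits all libraries with guides were above all libraries without plasmid. The share of all tested genes with such a separation was not computed for this comparison. EIF3C was not called (0.23, adjusted p = 0.0859, edgeR), and EIF3E and EIF3F were again lower, at -0.37 and -0.26. For the start-codon factors, EIF1 had 545, 538, 618 and 631 CPM with guides (0.60 ± 0.04), EIF1B 56.2, 52.0, 64.6 and 64.6 CPM (0.63 ± 0.06) and EIF5 values of 224 to 326 CPM (0.55 ± 0.04). EIF4A3 and EIF4H were at 0.30 and 0.29, and EIF4EBP2, not called with dCas9-VP160 alone, was called higher at 0.10, a call kept in 7 of 16 alternative settings and lost with the second technical replicates alone (0.032, adjusted p = 0.660). The median of the eIF4 genes was 0.02, against -0.08 with dCas9-VP160 alone, and whether those medians differ was not tested.

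Whether the responses differed between the 2 experiments was tested with an interaction term on the 12 unsummed libraries, where the error is the spread between technical replicates. Of all 19662 genes it called 2, 0 and 3 in the 3 comparisons in the order above, and 0 of the 47 members in each. At an unadjusted p below 0.05 there were 0, 0 and 2 members, and the lowest adjusted p among members was 0.980 (edgeR). With so few calls over all genes, this says little about the members. The table of 97 genes that the authors deposited from their own comparisons held 0 of the 51 initiation factor genes.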

How the data were processed

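RNA was sequenced from HEK293T cells in 12 libraries, made from 1 ng of RNA with SMART-Seq HT and Nextera XT kits. The authors deposited a table of raw counts per gene, and a table of 97 genes with, per the file headers, a mean normalised signal, log2 fold changes with standard errors, a Wald score, and p-values. Per the submitters' processing notes, Trim Galore 0.3.7, STAR 2.6.0c, Picard 2.17.1, DESeq2 1.16.1 and the build hg38 were used. Counting program and annotation release: not given in the sources used here. These kits are not known to mark strand, and no label states how strand was handled in counting.

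Technical replicates were summed, leaving n = 2 experiments per group. The block takes out the difference between the 2 batches of cells. The p-values thus set a group difference against how unevenly such differences repeated in these 2 batches. edgeR 4.0.16 in R 4.3.3 (filterByExpr, TMM, robust quasi-likelihood fit) tested 19662 genes with experiment as a block, and p-values were adjusted by Benjamini-Hochberg over all of them. Per the labels, libraries of the same experiment share their batch of cells, which pairs the groups; differences between experiments correlated between groups at 0.682 to 0.692 across 11105 genes. An SE was taken as the size of a log2 fold change over the root of its F statistic, and 95% intervals follow from them. The spread borrows a median of 24.0 prior degrees of freedom, against 2 residual ones. Spike-in counts (92 sequences) were left out. A count of 0 allows a level of up to 0.251 to 0.444 CPM (3 counts), for counting error only. DESeq2 1.42.0, other scalings and filters, leaving out technical replicates, and leaving out 1 experiment in 1 group or in all groups were alternatives. Gene types and coordinates came from GENCODE v29 (56812 identifiers matched).

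In dCas9-VP160 alone against no plasmid, the 12 called members with the largest log2 fold change are given by library, in guides against dCas9-VP160 alone the 6 largest whether or not called, and of the other translation lists the 3 largest changes; other values by library were chosen after they were seen. The members and lists were chosen with earlier results of these data known.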

Additional observations from a re-analysis of the deposited data

Results flagged for a closer look

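In 141 sets of 4 libraries (47 genes in 3 groups), 4 had a library whose gap to its nearest neighbour, divided by the range, passed Dixon's limit for 4 values; chance alone marks about 1 in 20. With guides, EIF3J was at 28.42 CPM in experiment 1 replicate 1 and at 35.09 to 36.05 CPM in the others (ratio 0.874). EIF6 with guides was at 109.2 CPM in the same library and at 103.8 to 104.3 CPM in the others (0.919). With dCas9-VP160 alone, EIF5A2 was at 17.70 CPM in experiment 1 replicate 1 and at 19.11 to 19.31 CPM in the others (0.877). Without plasmid, EIF4B was at 248.8 CPM in experiment 1 replicate 1 and at 269.5 to 273.4 CPM in the others (0.839), and that library held the most spike-in counts, 0.719% of its total; the part of this in the value was not tested. All 4 were replicate 1 of experiment 1 of their group.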

How the results depend on the processing

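The 12 members given by library kept their direction and their call in all 16 alternatives for dCas9-VP160 alone against no plasmid, except EIF3C. With no replicate block, members called in that comparison were 15 higher and 0 lower, and all genes 3036 higher and 2528 lower. In guides against dCas9-VP160 alone these were 0 and 0 members and 1 and 0 genes. In guides against no plasmid they were 20 members higher and 3 lower, and 3229 and 2869 genes. DESeq2 called 3406 genes higher and 2727 lower with dCas9-VP160 alone, 276 and 83 genes with 1 and 0 members for guides against dCas9-VP160 alone, and 2929 genes lower for guides against no plasmid. For guides against dCas9-VP160 alone, experiment 1 alone gave 0 and 0 members and 240 and 206 genes, and experiment 2 alone 0 and 0 members and 153 and 139 genes; 1 member was lower with DESeq2's size factors, without mitochondrial genes, with no filter, and with 12 unsummed libraries and the replicate block. In 8 settings, either 1 technical replicate was left out of every group or 1 experiment was left out of 1 group. The latter kept only 1 experiment in that group, so the ranges do not measure dependence on technical replicates alone. With dCas9-VP160 alone against no plasmid, the 8 settings gave 24 to 27 members higher and 5 to 10 lower. All genes were 3915 to 5355 higher and 3513 to 4881 lower. Of these settings, the first technical replicates alone gave 25 members higher and 5 lower, and the second alone 25 and 10. For guides against dCas9-VP160 alone the 8 settings gave 1 to 6 members higher and 0 to 2 lower. All genes were 255 to 1124 higher and 162 to 945 lower. For guides against no plasmid the 8 settings gave 23 to 28 members higher and 5 to 8 lower. EIF5A for guides against dCas9-VP160 alone ranged from -0.30 without replicate 1 to 0.01, a reversed sign, without replicate 2. The cause was not tested. With 2 experiments per group, small differences of low-count genes such as EIF5AL1 and EIF2S3B were not detectable.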
